A study of Mus musculus with 6 samples.

Results

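The miR-10 and miR-196 microRNAs are encoded inside the Hox gene clusters, and 6 of their mature forms were examined in mouse kidney: mmu-miR-10a-5p, mmu-miR-10a-3p, mmu-miR-10b-5p, mmu-miR-10b-3p, mmu-miR-196a-5p and mmu-miR-196b-5p (written below without the species prefix). They were chosen by name, and all 6 were found among the 1542 mature sequences of the count table. Kidney small RNA had been sequenced from 17-week-old female mice, with 3 libraries from C57BL/6 wild-type controls and 3 from MRL/lpr mice, whose genotype is given as MRL/MpJ-Fas<lpr>/J. The lpr allele disables Fas, a receptor that triggers the death of lymphocytes, and on the MRL background these mice become ill with a disease that resembles human lupus and affects the kidney. The comparison asks which kidney miRNAs differ between the strains. Strain background, the Fas mutation and disease cannot be told apart in this design, and since the labels tie no library to its own mouse, each p-value reflects only how far these samples scatter.

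Hox genes are transcription factors that set position along the body axis. They lie in clusters whose order follows the order of their expression, and the kidney, which arises from the trunk, keeps expressing several of them. A miRNA hairpin yields a 5p and a 3p arm, and the arm that is loaded into Argonaute pairs with messenger RNAs mainly through its seed, bases 2 to 8, and represses them. Hox messenger RNAs are among the known targets of both families, and miR-196 directs cleavage of the Hoxb8 messenger RNA through a nearly perfect site. miR-10 has also been linked to blood vessel growth and to restraint of inflammatory signalling in endothelial cells.

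The mature sequences show how close the members are, which bears on how their reads could be told apart. All 6 have a RefSeq entry (GRCm38.p6), and they are given 5′ to 3′ with the seed in capitals.
miR-10a-5p: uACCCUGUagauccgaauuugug
miR-10b-5p: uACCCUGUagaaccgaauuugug
miR-196a-5p: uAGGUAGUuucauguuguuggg
miR-196b-5p: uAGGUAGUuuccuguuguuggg
miR-10a-3p: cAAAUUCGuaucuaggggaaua
miR-10b-3p: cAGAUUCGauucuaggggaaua

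The major arms fell into 2 seed groups, ACCCUGU for miR-10 and AGGUAGU for miR-196. No other mature sequence among the 1679 names of the RefSeq table had either seed. miR-10a-5p and miR-10b-5p differ at a single base, written U12A with positions counted from the 5′ end and the miR-10a base first, and they share the 11 bases on each side of it. miR-196a-5p and miR-196b-5p also differ at position 12, by A12C, and share 11 bases before it and 10 after it. The 3p arms of miR-10a and miR-10b differ by A3G, U9A and A10U, so their seeds are not the same. The stretch agguagu, bases 2 to 8 of miR-196, is found at bases 3 to 9 of let-7a-5p, let-7c-5p and let-7f-5p, so the let-7 seed is shifted by 1 base against it. miR-10a-5p shares the 11 bases guagauccgaa with miR-100-5p, and miR-10b-5p shares the 10 bases guagaaccga with miR-99b-5p, which is why the miR-99 and miR-100 miRNAs serve as relatives below. No source at hand says how the authors assigned reads that fit more than 1 entry. The split of counts within each pair is therefore uncertain, and sums over a pair are given beside single members.

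The 5 hairpins lie in all 4 Hox clusters (GRCm38; the RefSeq coordinates are the same as those of GENCODE M21). Mir10a is at chr11:96317165-96317274 on the plus strand, between genes in the Hoxb cluster, 992 bases before Hoxb4 and 11043 bases after Hoxb5. Mir10b is at chr2:74726070-74726137 on the plus strand, in introns of Hoxd3 and Hoxd4. Mir196a-1 is at chr11:96265164-96265265 on the plus strand, between genes, 6191 bases before Hoxb9, and Mir196a-2 is at chr15:102973350-102973434 on the plus strand, in an intron of a long Hoxc5 transcript, between Hoxc10 and Hoxc9. Mir196b is at chr6:52230081-52230165 on the minus strand and overlaps an exon in 2 of the 3 Hoxa9 transcripts that span it. The hairpins show why some arms can be traced to a locus and others cannot, with the mature arms in capitals and the rest in lower case.
Mir10a: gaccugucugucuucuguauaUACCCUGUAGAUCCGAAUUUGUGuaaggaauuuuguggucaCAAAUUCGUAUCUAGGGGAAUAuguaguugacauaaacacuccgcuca
Mir10b: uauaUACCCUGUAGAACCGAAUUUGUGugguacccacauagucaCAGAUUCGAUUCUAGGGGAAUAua
Mir196a-1: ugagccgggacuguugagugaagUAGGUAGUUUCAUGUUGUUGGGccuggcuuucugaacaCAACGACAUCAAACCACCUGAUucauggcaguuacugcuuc
Mir196a-2: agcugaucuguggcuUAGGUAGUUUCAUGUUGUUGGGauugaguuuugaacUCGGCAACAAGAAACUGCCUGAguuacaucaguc

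Mir196a-1 and Mir196a-2 give the same miR-196a-5p, so its counts cannot be assigned to a locus, while their 3p arms differ at 17 of 22 bases.

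Libraries held 5259528 to 6773829 counts. C57BL/6 replicate 2 stood apart from the other libraries: 7 leukocyte miRNAs summed to 28916 CPM there (counts scaled to a common library total by TMM), against 6053 and 6225 CPM in the other C57BL/6 libraries and 9387 to 11083 CPM in MRL/lpr. Its proximal tubule sum (miR-192, miR-194, miR-215 and miR-204) was 34294 CPM, against 54098 to 68442 CPM in the other 5. The miR-200 family of distal and collecting epithelium was found in every library, at 35704 to 56661 CPM, and was lowest in C57BL/6 replicate 2. Of the 4 proximal tubule miRNAs, 1 had no counts in at least 1 library. Over all miRNAs that passed the filter on low counts, 28 of 451 differed between strains (19, or 4.21%, higher and 9, or 2%, lower in MRL/lpr, by edgeR at a Benjamini-Hochberg adjusted p under 0.05). With library size alone the split was 24 higher and 6 lower, and the median log2 fold change of all tested miRNAs moved from -0.027 to 0.12, so each difference is relative to the scaling.

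The 5p arms were among the most abundant miRNAs of the kidney, and the 3p arms were rare. All 6 members together took 5.61% to 6.37% of the counts in the C57BL/6 libraries and 5.63% to 5.76% in the MRL/lpr libraries. By count, miR-10a-5p ranked between 8 and 14 of the 1542 sequences in each library, miR-10b-5p between 23 and 28, miR-196b-5p between 24 and 28, and miR-196a-5p between 29 and 34. miR-10a-3p ranked between 183 and 217 and miR-10b-3p between 310 and 352. The members are 22 or 23 bases long, so levels were compared without a correction for length, but adapter ligation favours some ends over others and can shift levels between miRNAs. miR-10a-5p was the highest member in all 6 libraries and miR-196b-5p was above miR-196a-5p in all 6. miR-10b-5p was above miR-196b-5p in the 3 C57BL/6 libraries and in MRL/lpr replicates 2 and 3, but not in MRL/lpr replicate 1, so these neighbours did not separate in MRL/lpr.

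**Figure D1:**
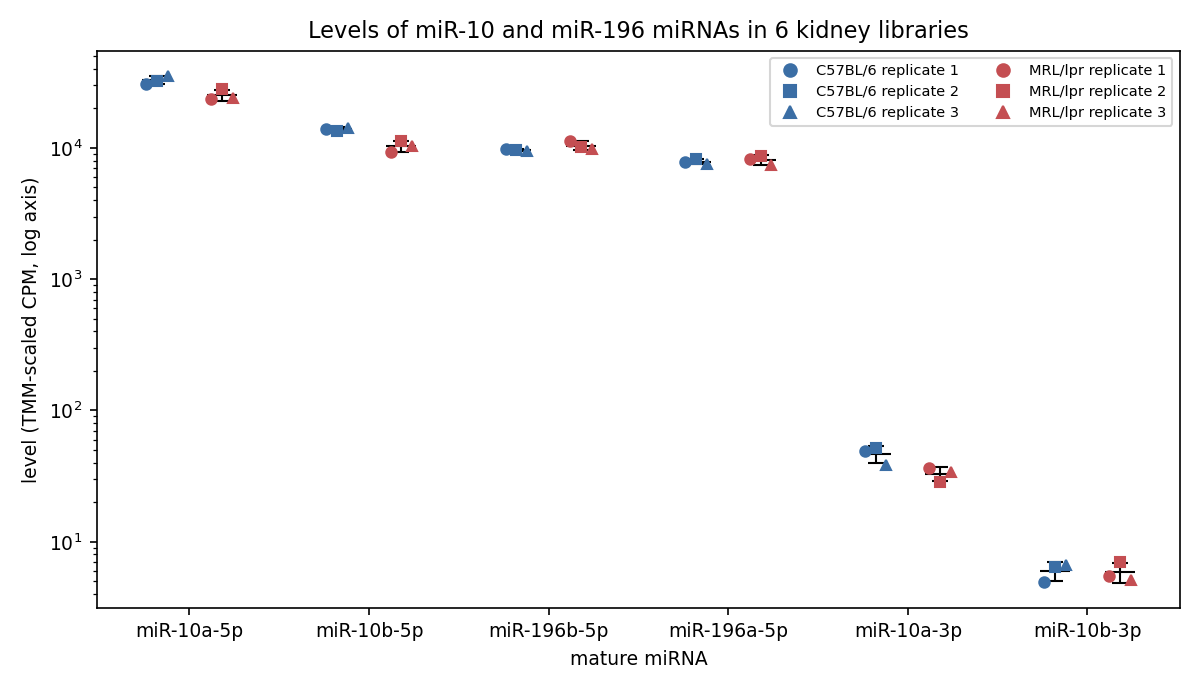
Level of each mature miRNA in TMM-scaled CPM on a log axis (y) for the 6 members (x), with 1 symbol per library, bars at the group mean and whiskers of 1 SD (n = 3). The 4 major arms lie between 7382 and 35238 CPM and the 3p arms between 4.91 and 51.6 CPM. In scaled CPM the 2 strains separate for miR-10a-5p, miR-10b-5p and miR-10a-3p, but not for miR-10b-3p or the miR-196 arms.

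None of the 6 members passed the test between strains, where 6.21% of all tested miRNAs did. DESeq2 and limma-voom also called 0 of the 6, where DESeq2 called 51 of 1395 unfiltered miRNAs and limma-voom 21 of 451. At an unadjusted p under 0.05, edgeR had 2 of the 6 (miR-10a-5p and miR-10b-5p, both lower in MRL/lpr; 9.76% of all tested miRNAs were lower at that level and 20.8% differed in either direction), limma-voom had 2 and DESeq2 had 1. For 3 of the 6 members the strains had separate ranges of CPM, all lower in MRL/lpr, against 14.9% of tested miRNAs that were lower without overlap (28.8% in either direction). These 3 are both arms of miR-10a, which share a hairpin, and miR-10b-5p, which differs from miR-10a-5p at 1 base. They are therefore not 3 separate observations. After the mean of each strain was subtracted, miR-10a-3p did not follow the 5p arms (Pearson r of log2 CPM -0.90 with miR-10a-5p and -0.77 with miR-10b-5p). The members' median log2 fold change (MRL/lpr over C57BL/6) was -0.21, and that of all 451 tested miRNAs was -0.027. The latter median spans miRNAs of all levels. The tested miRNAs next above and below miR-10a-5p in mean level, miR-192-5p and miR-143-3p, had 0.11 and -0.33. Those next above and below miR-10b-5p, miR-23b-3p and miR-378a-3p, had -0.46 and -0.077.

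miR-10b-5p, the Hoxd member, had 13967, 13448 and 14283 CPM in C57BL/6 replicates 1, 2 and 3 and 9373, 11376 and 10364 CPM in the MRL/lpr replicates. Every MRL/lpr library was below every C57BL/6 library. The means were 13899 ± 422 and 10371 ± 1001 CPM (SD, n = 3), a log2 fold change of -0.42 ± 0.14 SE (edgeR adjusted p = 0.101, unadjusted p = 0.0125, n = 3 in each strain), or a fold of 0.746 with a 95% interval of 0.602 to 0.925. As a share of all counts, without scaling, it took 1.26% to 1.35% in C57BL/6 and 1.03% to 1.13% in MRL/lpr, also without overlap.

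miR-10a-5p, the Hoxb member and the most abundant of the 6, had 30708, 32280 and 35238 CPM in C57BL/6 and 23591, 27956 and 24173 CPM in MRL/lpr. The groups were again separate, with MRL/lpr replicate 2 nearest to the C57BL/6 libraries. Means were 32742 ± 2300 and 25240 ± 2370 CPM (SD, n = 3), with a log2 fold change of -0.38 ± 0.14 SE (edgeR adjusted p = 0.133, unadjusted p = 0.0201) and a fold of 0.771 (95% interval 0.625 to 0.951). Its share of all counts was 2.76% to 3.34% in C57BL/6 and 2.59% to 2.74% in MRL/lpr, so without scaling the gap between the groups was narrow. In size both lay near the middle of the tested miRNAs: 51.2% of the tested miRNAs had a smaller absolute log2 fold change than miR-10a-5p, and 56.3% had a smaller one than miR-10b-5p.

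The sum of the miR-10 5p arms does not depend on how reads were split between the paralogs, provided each read was kept and counted once. It was 44675, 45728 and 49521 CPM in C57BL/6 and 32964, 39331 and 34537 CPM in MRL/lpr, again with every MRL/lpr library lower. Its log2 fold change was -0.42 ± 0.14 SE (edgeR adjusted p = 0.0961), which did not pass either. That fit replaced the 2 rows by their sum and scaled the libraries anew, unlike these CPM values. With library size alone it was -0.24 (edgeR adjusted p = 0.23), with -0.23 for miR-10a-5p (0.286) and -0.28 for miR-10b-5p (0.208). The C57BL/6 library with high leukocyte miRNAs was not outlying here: miR-10a-5p in C57BL/6 replicate 2 was 0.979 times, and miR-10b-5p 0.952 times, the mean of the other C57BL/6 libraries. Without it the log2 fold changes were -0.37 for miR-10a-5p (edgeR adjusted p = 0.126) and -0.43 for miR-10b-5p (edgeR adjusted p = 0.0729).

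In whole tissue, fewer cells that express a miRNA and less of it per cell cannot be told apart. Among the lists read as library composition, the endothelial miRNAs (both arms of miR-126a) summed to 82924, 69362 and 78863 CPM in C57BL/6 and 59117, 73074 and 58064 CPM in MRL/lpr. The 2 lowest of these libraries, MRL/lpr replicates 1 and 3, were also the 2 lowest for miR-10a-5p and for miR-10b-5p, while the strains overlapped in the endothelial sum. C57BL/6 replicate 2 was below MRL/lpr replicate 2 in that sum, but above it for miR-10a-5p and miR-10b-5p. The mesenchymal and smooth muscle sum ran from 29764 to 42769 CPM in C57BL/6 and from 26563 to 33359 CPM in MRL/lpr. Its 2 lowest libraries were MRL/lpr replicates 1 and 3 as well, so that match is not particular to the endothelial list. Both lists had all their miRNAs detected in every library. Detected does not mean steady: miR-199a-3p, in the mesenchymal list, had a log2 fold change of -0.0099 ± 1.56 SE. Their part in the miR-10 values was not tested.

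**Figure D2:**
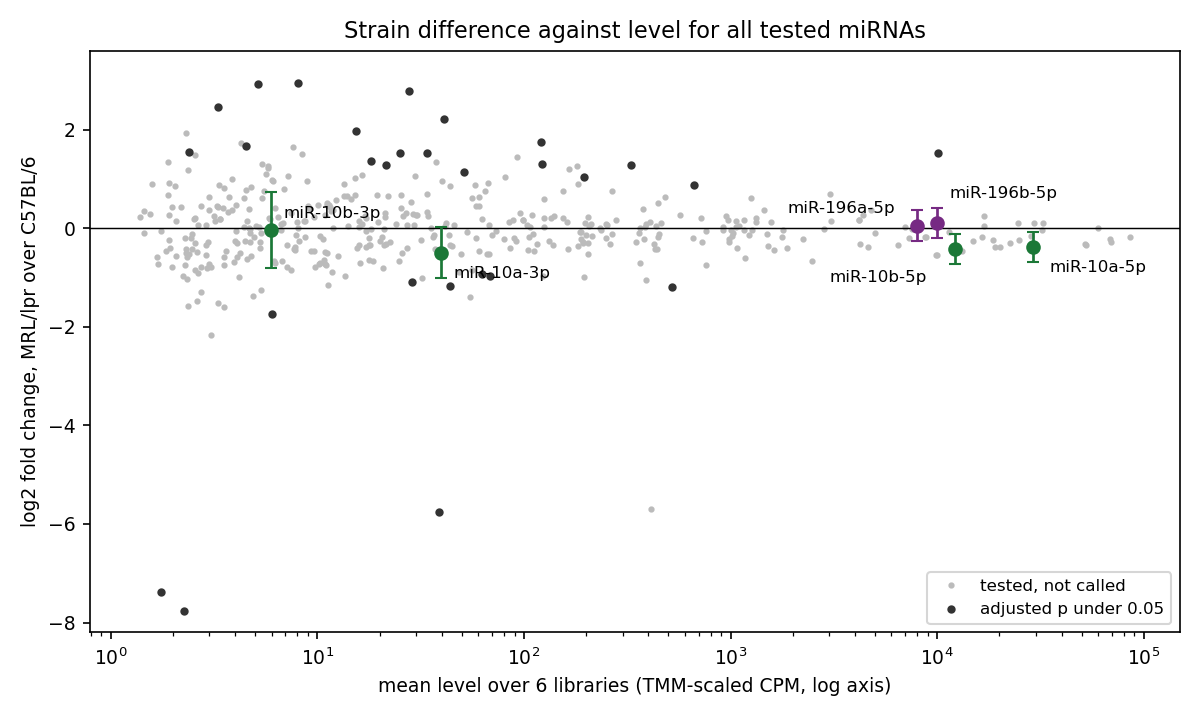
Log2 fold change, MRL/lpr over C57BL/6 (y), against mean level in TMM-scaled CPM on a log axis (x) for the 451 tested miRNAs, with black points for the 28 at an adjusted p under 0.05 and coloured points with 95% intervals for the 6 members. The intervals of miR-10a-5p and miR-10b-5p lie below 0, at -0.38 and -0.42, inside the cloud of miRNAs that were not called.

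The rare 3p arms gave less precise values. miR-10a-3p had 49.3, 51.6 and 38.6 CPM in C57BL/6 and 36.3, 28.5 and 33.9 CPM in MRL/lpr, from 147 to 321 counts a library. The groups did not overlap in CPM, but as shares of all counts without scaling they did (0.00366% to 0.00517% and 0.0028% to 0.00398%). Its log2 fold change was -0.50 ± 0.23 SE (edgeR adjusted p = 0.251), with a 95% interval of -1.02 to 0.021. miR-10b-3p had 24, 40 and 43 counts in C57BL/6 and 39, 36 and 31 counts in MRL/lpr. These are 6.01 ± 0.964 and 5.88 ± 0.981 CPM (SD, n = 3), with a log2 fold change of -0.040 ± 0.35 SE (edgeR adjusted p = 0.96). Its 95% interval of -0.81 to 0.73 does not exclude a difference of 1.5-fold in either direction.

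Arm balance was compared in 1 fit over 209 hairpin names (limma on log2 of 5p over 3p CPM, after adding 1 CPM to each). miR-10a gave 623, 626 and 912 counts of the 5p arm for each count of the 3p arm in C57BL/6, and 650.1, 980 and 712 in MRL/lpr, and the strains overlapped. The log2 difference was 0.10 (95% interval -0.54 to 0.75; limma adjusted p = 0.861). For miR-10b the ratios were 2845, 2093 and 2132 in the controls and 1702, 1628 and 2019 in MRL/lpr. The MRL/lpr ratios were all lower, as in 7.66% of hairpins, but the log2 difference of -0.40 (95% interval -0.96 to 0.16; limma adjusted p = 0.463) did not pass, and the ratio rests on 24 to 43 counts of the 3p arm. Of all hairpin names 0.478% passed this test.

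The miR-196 arms lay close together in both strains. miR-196b-5p, the Hoxa member, had 9775, 9606 and 9504 CPM in C57BL/6 and 11337, 10191 and 9747 CPM in MRL/lpr. MRL/lpr replicate 3 fell within the range of the controls, and MRL/lpr replicates 1 and 2 were above it. Means were 9628 ± 137 and 10425 ± 820.4 CPM (SD, n = 3), a log2 fold change of 0.11 ± 0.14 SE (edgeR adjusted p = 0.669) with a fold interval of 0.877 to 1.34. Without scaling, its share of all counts was 0.88% to 0.962% in C57BL/6 and 0.998% to 1.24% in MRL/lpr, which did not overlap, and with library size alone the log2 fold change was 0.27 (edgeR adjusted p = 0.286).

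miR-196a-5p, from the Hoxb and Hoxc loci, had 7778, 8183 and 7499 CPM in C57BL/6 and 8177, 8718 and 7382 CPM in MRL/lpr. The lowest and the highest of these 6 values both came from MRL/lpr. Its log2 fold change was 0.049 ± 0.14 SE (edgeR adjusted p = 0.86), with a fold interval of 0.833 to 1.29, and it turned below 0 without C57BL/6 replicate 3 (-0.019) or without MRL/lpr replicate 2 (-0.036). The sum of the miR-196 5p arms averaged 17448 ± 403 CPM in the controls and 18517 ± 1240 CPM in MRL/lpr (SD over 3 libraries). In a fit also scaled anew, its log2 fold change was 0.10 ± 0.14 SE (edgeR adjusted p = 0.713). With library size alone it was 0.24 for the sum (edgeR adjusted p = 0.3) and 0.20 for miR-196a-5p (0.43).

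The 3p arms of the miR-196a loci can be told apart by sequence, though both were rare. miR-196a-1-3p had 18, 23 and 34 counts in C57BL/6 and 44, 34 and 41 counts in MRL/lpr, while miR-196a-2-3p had 2, 1 and 6 counts and 1, 1 and 4 counts. The Hoxb arm thus made up 85% to 97.8% of the 3p counts of both loci, with exact binomial 95% intervals from 68.3% to 98.8% in C57BL/6 replicate 1 to 88.2% to 99.9% in MRL/lpr replicate 1. The intervals cover counting error only, since copies made by PCR could be counted more than once. A share of 3p arms is not a share of miR-196a-5p, because the 3p arms of the loci differ in sequence and may be kept or lost at unlike rates.

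Within each family, the balance of the paralogs overlapped between strains. miR-10a-5p made up 68.7%, 70.6% and 71.2% of the miR-10 5p counts in C57BL/6 and 71.6%, 71.1% and 69.99% in MRL/lpr. The log2 ratio of miR-10a-5p to miR-10b-5p differed between strains by 0.049 (p = 0.6 by an exact permutation test, two-sided; with 3 libraries against 3 no p under 0.1 is possible). miR-196a-5p made up 44.3%, 46.0% and 44.1% of the miR-196 5p counts in C57BL/6 and 41.9%, 46.1% and 43.1% in MRL/lpr, a difference in log2 ratio of -0.065 (p = 0.5 by the same exact permutation test). For miR-10 the strain difference was smaller than the SD among libraries of either strain (0.087 in C57BL/6 and 0.056 in MRL/lpr). For miR-196 it was about as large as the SD in C57BL/6 (0.061) and smaller than that in MRL/lpr (0.13).

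The balance between the families separated the libraries by strain. For each count of the miR-196 5p arms the C57BL/6 libraries held 2.55, 2.57 and 2.91 counts of the miR-10 5p arms, and the MRL/lpr libraries held 1.69, 2.08 and 2.02. All 3 MRL/lpr ratios were below all 3 C57BL/6 ratios, with means of 1.93 ± 0.210 and 2.68 ± 0.205 (SD, n = 3). The miR-10 sum alone also separated the strains, so the ratio is not a separate observation. Strains also did not overlap, in either direction, for 28.8% of single tested miRNAs and 18.7% of arm ratios. The share among other ratios between families was not computed. A ratio within a library does not depend on the scaling between libraries. It shows that the families stood in unequal proportion, not which of them differed, and it was chosen after its values were seen, so it is given without a test.

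**Figure D3:**
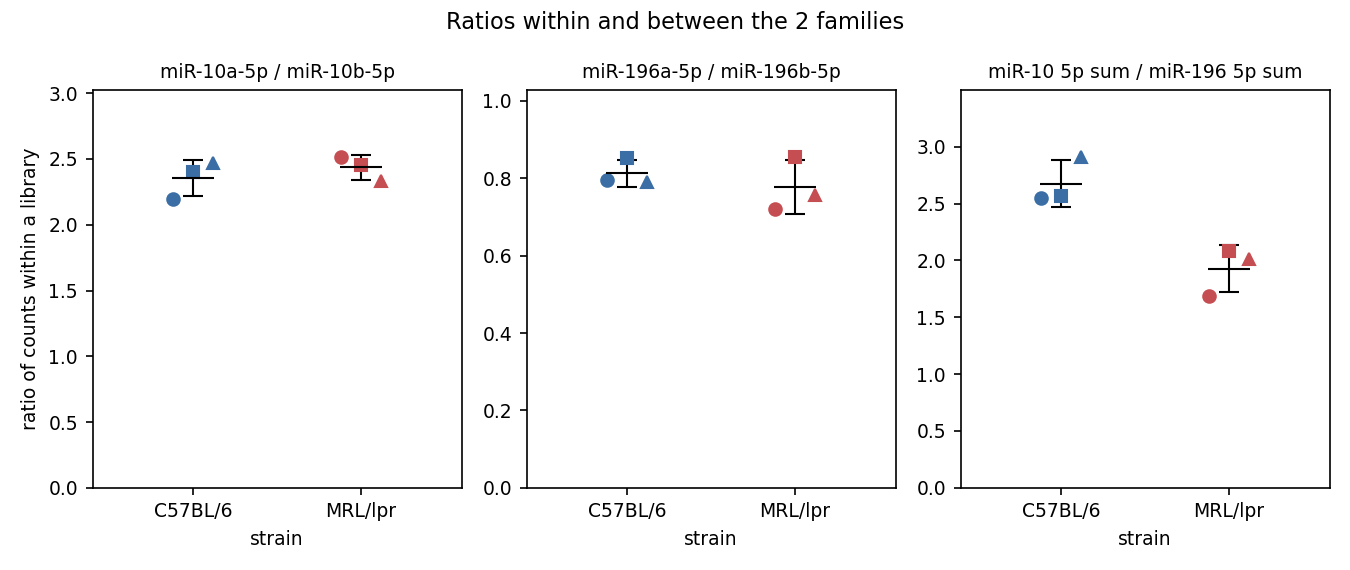
Ratio of counts within each library (y) by strain (x) for miR-10a-5p over miR-10b-5p (left), miR-196a-5p over miR-196b-5p (middle) and the miR-10 5p sum over the miR-196 5p sum (right), with 1 symbol per library (circles, squares and triangles for replicates 1, 2 and 3), bars at the mean and whiskers of 1 SD (n = 3). The paralog ratios overlap between strains, while the ratio between families is 2.55 to 2.91 in C57BL/6 and 1.69 to 2.08 in MRL/lpr.

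Of 5 other mature miRNAs of the Hox clusters, 4 were tested and none passed with edgeR, DESeq2 or limma-voom. Of all tested miRNAs, 20.8% were at an unadjusted p under 0.05 by edgeR. Among these 4 there was 1 at that level by each tool. That was miR-615-3p, from a hairpin in the Hoxc cluster, whose sequence is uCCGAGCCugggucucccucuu (seed in capitals). It had 429.8, 427 and 498 CPM in C57BL/6 and 224, 386 and 218 CPM in MRL/lpr. All MRL/lpr libraries were lower, MRL/lpr replicate 2 least so, and the log2 fold change was -0.71 ± 0.26 SE (edgeR adjusted p = 0.133). Without MRL/lpr replicate 2 it was -1.06 (edgeR adjusted p = 0.0325), against adjusted p of 0.0325 to 0.465 over all alternatives. MRL/lpr replicate 2 was also the MRL/lpr library with the highest miR-10a-5p and miR-10b-5p. miR-196a-1-3p averaged 4.22 ± 0.928 CPM in the controls and 6.53 ± 0.293 CPM in MRL/lpr (SD, n = 3) without overlap (log2 fold change 0.62, edgeR adjusted p = 0.326). Strains did not overlap, in either direction, for 28.8% of all tested miRNAs. miR-196b-3p (11 to 23 counts a library) and miR-615-5p (12 to 17 counts) overlapped between strains, and miR-196a-2-3p was not tested.

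Of the 6 arms of miR-99a, miR-99b and miR-100, the relatives of miR-10 outside the Hox clusters, none passed with edgeR, DESeq2 or limma-voom, and none reached an unadjusted p of 0.05. Their groups all overlapped, and the median log2 fold change of these 6 arms, which come from 3 hairpins, was -0.27, against -0.027 for all tested miRNAs. miR-99a-5p, about as abundant as miR-10a-5p, averaged 30178 ± 2419 CPM in the controls and 26910 ± 761 CPM in MRL/lpr (SD over 3 libraries), a log2 fold change of -0.17 ± 0.13 SE (edgeR adjusted p = 0.526). miR-99b-5p had 7264 ± 938 and 5722 ± 1017 CPM (-0.34 ± 0.18 SE, edgeR adjusted p = 0.295). miR-100-5p had 1864 ± 605 and 1377 ± 168 CPM (-0.44 ± 0.23 SE, edgeR adjusted p = 0.309), and was high in C57BL/6 replicate 2, at 2560 CPM. The 3p arms had log2 fold changes of -0.19 for miR-99b-3p, 0.20 for miR-99a-3p and -0.35 for miR-100-3p.

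The miRNAs with the profile most like a member's were sought among the 146 other named miRNAs with a mean of at least 100 CPM, by Pearson r of log2 CPM (after adding 1) over the 6 libraries. These values are descriptions over few libraries that share their depth, scaling and strain. For miR-10a-5p they were miR-139-5p (r = 0.966), the Hox cluster miRNA miR-615-3p (0.960) and miR-375-3p (0.958). For miR-10b-5p they were miR-222-3p (0.979), miR-103-3p (0.968) and miR-28a-5p (0.965). Likeness to members whose strains separate favours miRNAs that separate too, so their own strain differences are no further evidence. Among these 6, miR-375-3p, a miRNA of secretory epithelial and neuroendocrine cells, was the 1 that passed the test (log2 fold change -1.19, edgeR adjusted p = 0.00793). After the mean of each strain was subtracted, the closest were miR-92a-3p (0.999) for miR-10a-5p and miR-103-3p (0.981) for miR-10b-5p. For miR-196a-5p the closest was miR-199a-5p, at 0.718, and for miR-196b-5p it was miR-7a-5p, at 0.855; after subtraction they were miR-127-3p (0.964) and miR-7a-1-3p (0.967).

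**Figure D4:**
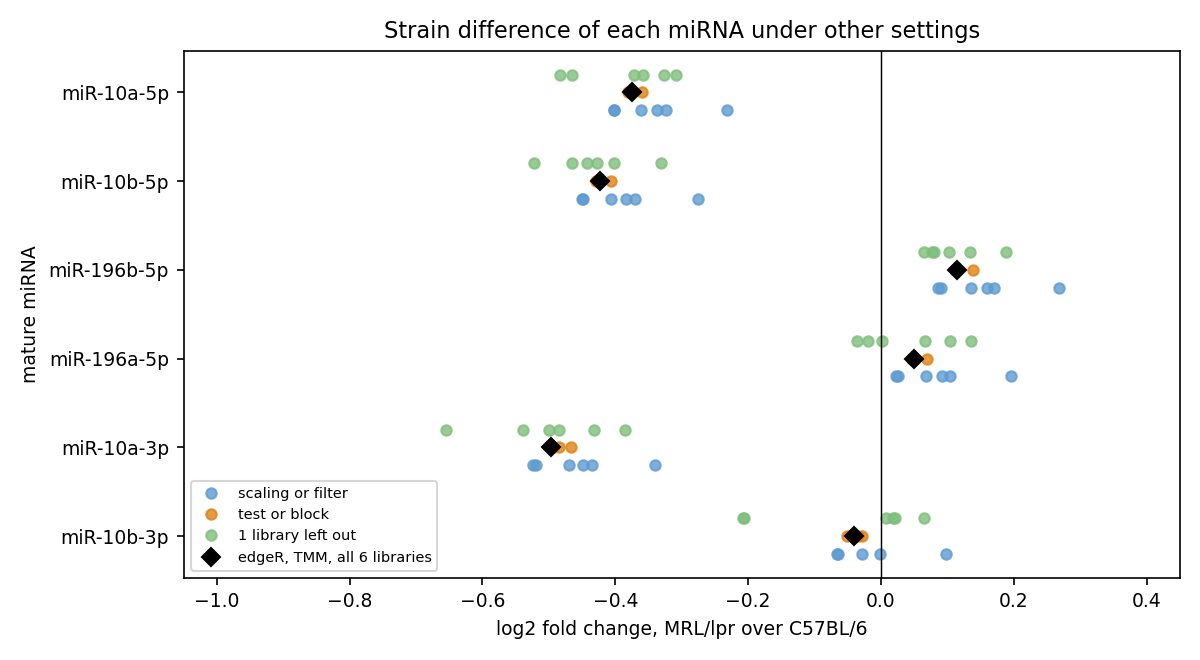
Log2 fold change, MRL/lpr over C57BL/6 (x), of each member (y) with all 6 libraries, edgeR and TMM (black diamonds), under other scalings and filters (blue), under other tests or with a replicate block (orange), and with 1 library left out (green). miR-10a-5p ranges from -0.48 to -0.23 and miR-10b-5p from -0.52 to -0.28, always below 0, while miR-10b-3p and miR-196a-5p cross 0.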

How the data were processed

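The authors' deposited table holds raw counts per mature miRNA for 6 kidney libraries. Per the labels' protocols, TRIzol RNA was made into libraries by adapter ligation, PCR and gel size selection. Bowtie2, DESeq2 and the build GRCm38.p6 appear, without roles or versions, in the submitters' processing notes. The miRNA annotation and the rules for strand and for multiply matching reads were not given in these sources.

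Each column was tied to the sample whose title has its strain, age and number. miRNAs kept by filterByExpr (minimum count 10, minimum total 15) were scaled by TMM and tested with edgeR 4.0.16 (R 4.3.3; quasi-likelihood, robust dispersion, strain alone), adjusted over all 451 by Benjamini-Hochberg with a threshold of 0.05. Standard errors come from the coefficient and its F statistic. Arm ratios used limma 3.58.1, and DESeq2 1.42.0 was an alternative. The scripts were tested on simulated data, where 38.8% of 98 2-fold changes and 96% of 99 4-fold changes were called. Beside them 9 of 245 unchanged miRNAs were called, and with no change put in 0 of 442. Of 20 arm shifts of 4-fold, 12 were called. A result that did not pass therefore does not show that the strains are equal. Libraries of a group differed by more than counting noise (chi-square at least 123 per degree of freedom), so none was a copy of another's counts. This cannot show that they came from separate mice. Named miRNAs are the 6 members, 5 other Hox cluster miRNAs, 6 relatives and the 3 most similar profiles for each member of at least 100 CPM. Added to these are the most abundant tested miRNAs and those next in mean level to miR-10a-5p and miR-10b-5p. Members and lists were chosen with earlier results of these data known. Sequences are from RefSeq.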

Additional observations from a re-analysis of the deposited data

How the results depend on the processing

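The 6 members, the 2 family sums and the 2 arm ratios stayed on the same side of the threshold under every alternative that gave a value. The paralog ratios could not pass it in this design, so their p-values say nothing about stability. Directions turned for 3 results, all close to 0. For miR-10b-3p the log2 fold change was 0.098 with library size alone, and -0.21 to 0.064 with 1 library left out; it had no value with a filter of 10 CPM in 3 libraries. With 1 library left out, miR-196a-5p ran from -0.036 to 0.14 and the miR-10a arm ratio from -0.067 to 0.28. The causes were not tested. Adjusted p ran from 0.0743 to 0.458 for miR-10a-5p, from 0.0696 to 0.315 for miR-10b-5p and from 0.0563 to 0.329 for their sum.

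The number of miRNAs that differed, 28, was 64 with no filter (1395 tested), 51 with DESeq2 on the unfiltered table and 13 with the replicate number as a block. With 1 library left out it ran from 5 to 54: 15, 54 and 11 without C57BL/6 replicates 1, 2 and 3, and 5 without MRL/lpr replicate 3. Fewer libraries also give less power. The labels give no pairing: deviations of same-numbered libraries correlated at -0.37, 0.034 and -0.37, and 0 of the 6 libraries correlated best with its own number. The replicate block gave -0.38 for miR-10a-5p, -0.43 for miR-10b-5p, -0.49 for miR-10a-3p, -0.034 for miR-10b-3p, 0.047 for miR-196a-5p and 0.11 for miR-196b-5p, and changed no member's call. It gave -0.42 and 0.097 for the miR-10 and miR-196 sums, and permutation p-values of 0.75 and 0.5 for the paralog ratios. Alternatives for miR-615-3p were added after seeing the data. Counts of 24 to 43 limit miR-10b-3p.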
